A study of Mus musculus with 8 samples.

Results

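The miRNAs described here are 9 mature products of 1 gene cluster on the mouse X chromosome, the cluster of miR-322 and miR-503 with its neighbours miR-351, miR-542 and miR-450: mmu-miR-322-5p, mmu-miR-322-3p, mmu-miR-503-5p, mmu-miR-503-3p, mmu-miR-351-5p, mmu-miR-450a-5p, mmu-miR-450b-5p, mmu-miR-542-3p and mmu-miR-542-5p, written below without the mouse prefix mmu. They were chosen by name, 9 of 1281 mature miRNAs in the deposited small RNA-seq tables, and all 9 were found. The study measured small RNAs in bone tissue and in a bone cell line that was taken through differentiation. The tissue was calvaria, the frontal and parietal bones of the skull vault, from C57BL/6 female mice that were 2 to 3 days old and carried Prrx1-Cre. This transgene expresses Cre recombinase in limb and skull-vault mesenchyme, and all 3 calvaria carried it. The cells were MC3T3-E1 sc4, a clonal pre-osteoblast line derived from mouse calvaria, at passages 10 to 15. They were sampled undifferentiated at day 0 and under ascorbic acid and β-glycerol phosphate at days 6, 10, 17 and 24. Each MC3T3 day is 1 library, made by pooling RNA of 3 cultures, so the spread within the cell line is a spread over days. Nothing in the labels tells whether the 3 calvaria are separate animals, and p-values then measure only the spread between these libraries.

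miRNAs are short RNAs cut from hairpin precursors, and they repress messenger RNAs that pair with their seed, the bases near the 5′ end. Members of 1 cluster can be cut from a shared primary transcript and are often measured together. miR-322 (called miR-424 in human) and miR-503 belong by seed to the miR-15/16 group, known for repressing cyclins and other drivers of entry into the cell cycle. In mouse myoblasts they are known for promoting withdrawal from the cell cycle through Cdc25a, and in mouse osteogenic cells miR-322 is known to target Tob2, a protein that destabilises the mRNA of the osteoblast transcription factor Osterix.

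The 7 precursors lie on the minus strand of chromosome X within 6353 bases (GRCm38/mm10, the build the authors used, with GENCODE M21 positions). In the direction of transcription, Mir322 (53054255 to 53054349) comes first, Mir503 (53053984 to 53054054) starts 200 bases after it and Mir351 (53053255 to 53053353) 630 bases further on. A gap of 3767 bases separates these 3 from Mir542 (53049403 to 53049487). Mir450-2 (53048299 to 53048367), Mir450-1 (53048154 to 53048244) and Mir450b (53047997 to 53048078) follow at gaps of 1035, 54 and 75 bases. In RefSeq the long noncoding RNA C430049B03Rik spans Mir322, Mir503 and Mir351, whereas its GENCODE M21 model covers none of the precursors. No protein-coding gene covers any of the 7.

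The mature sequences are shown because the seed decides which other miRNAs a member can be pooled with. They are RefSeq sequences (GRCm38.p6), written 5′ to 3′ with bases 2 to 8 in capitals, and relatives from other chromosomes follow their members.
miR-322-5p: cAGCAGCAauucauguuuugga
miR-503-5p: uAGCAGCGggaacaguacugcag
miR-16-5p: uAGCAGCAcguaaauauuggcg
miR-195a-5p: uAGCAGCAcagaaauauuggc
miR-351-5p: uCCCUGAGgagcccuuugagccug
miR-125b-5p: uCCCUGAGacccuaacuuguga
miR-450a-5p: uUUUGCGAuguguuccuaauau
miR-450b-5p: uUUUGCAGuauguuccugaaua
miR-542-3p: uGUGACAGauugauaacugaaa
miR-542-5p: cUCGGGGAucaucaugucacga
miR-322-3p: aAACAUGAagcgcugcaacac
miR-503-3p: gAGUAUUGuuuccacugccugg

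Among the measured miRNAs with a RefSeq sequence under their name, 8 had the same bases 2 to 8 as miR-322-5p, including miR-16-5p and miR-195a-5p. miR-503-5p shared bases 2 to 7 with the same group but differed from it at base 8. miR-351-5p had the seed of miR-125a-5p and miR-125b-5p, a family known as the vertebrate counterpart of the worm developmental timing miRNA lin-4. The other 6 members shared bases 2 to 8 with no other miRNA in the tables, so miR-450a-5p and miR-450b-5p also differ from each other within the seed. The Mir322 hairpin is shown because both of its arms were measured at appreciable levels, the 5′ arm and then the 3′ arm in capitals.
Mir322: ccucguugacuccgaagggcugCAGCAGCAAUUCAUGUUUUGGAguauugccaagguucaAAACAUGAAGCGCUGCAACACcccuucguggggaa

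The libraries held 1183011 to 2023036 estimated miRNA counts in calvaria and 2742368 to 4031962 in MC3T3 cells. Levels are given as RPM, the reads of a miRNA scaled to a fixed total of miRNA reads in every library. At day 0, miR-21a-5p took 45.5% of that total, against 11.2 to 20.1% on the later days and 5.41 to 9.74% in calvaria, so each day 0 value in RPM is measured in a library that stands apart. Tests used edgeR's quasi-likelihood method on counts with TMM scaling (which resets the library scale on the bulk of miRNAs, factor 0.739 for day 0), and p-values were adjusted by Benjamini-Hochberg over all miRNAs tested, with 0.05 as threshold. The calvaria libraries also held RNA of other cell types. Beside the counts given next, 35.5% of all 471 miRNAs tested were higher in calvaria and 28.7% were lower. The endothelial miR-126 arms summed to 9028 to 20323 RPM in calvaria and 6.20 to 19.01 RPM in MC3T3 cells, with both arms higher in calvaria by the test. Of 7 blood cell miRNAs, 6 were higher and 1 was lower, with sums of 308 to 454 RPM in calvaria and 38.9 to 110.6 RPM in MC3T3 cells. All 4 cartilage miRNAs were higher (log2 1.26 to 1.76), with sums of 61235 to 111611 RPM in calvaria and 18218 to 28775 RPM in MC3T3 cells. The cell line held them at high levels too, so their difference does not by itself show another cell type. Of 4 muscle miRNAs tested, miR-133a-3p (log2 2.99) and miR-1a-3p (log2 1.99) were higher and none was lower by the test. miR-206-3p (mean 112 RPM in calvaria, 212 RPM in MC3T3 cells) and miR-499-5p (2.69 and 9.74 RPM) had lower means in calvaria and did not pass. The muscle sums overlapped, with 283 to 642 RPM in calvaria and 213 to 574 RPM in MC3T3 cells, where miR-206-3p alone reached 556 RPM at day 0. Epithelial miRNAs summed to 16.8 to 26.2 RPM in calvaria and 2.24 to 5.46 RPM in MC3T3 cells, and miR-200b-3p, the only one tested, was higher. Among these markers, miR-126-5p, miR-200b-3p, miR-451a, miR-144-3p, miR-223-3p, miR-142-3p and miR-142-5p reached 10 counts only in calvaria. They were tested only through calvaria and so had to be higher there. None of 3 nervous system miRNAs tested passed. The part of these cells in the results was not tested, and in such bulk libraries fewer cells of a type cannot be told apart from less RNA per cell.

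The cluster as a whole was more abundant in calvaria than in any MC3T3 library. The 9 members summed to 9532, 9877 and 9325 RPM in the 3 calvaria, against 1766, 5887, 4997, 4706 and 4425 RPM at days 0, 6, 10, 17 and 24 of MC3T3 culture. In calvaria they made up 0.958% ± 0.0279 of the library (SD, n = 3), and in MC3T3 cells 0.177% at day 0 and 0.443 to 0.589% afterwards. The calvaria sums lay within a narrow band and all above the highest MC3T3 day. Counted with the same scaling over all reads other than miR-21a-5p, the sums were 10264, 10441 and 10331 in calvaria and 3243, 7372, 6158, 5302 and 5087 at the 5 MC3T3 days, again with every calvaria above every MC3T3 day.

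In calvaria against MC3T3 cells, 8 of the 9 members were higher by edgeR's test, where 35.5% of the 471 miRNAs tested were higher and 28.7% were lower. None of the 9 was lower. The median log2 difference of the 9 members was 1.47, beside 0.06 for all miRNAs tested. For 8 of the 9 members, all 3 calvaria lay above all 5 MC3T3 libraries in RPM, a separation that 39.5% of the tested miRNAs showed, while 21.9% showed the opposite one. The exception in both counts was miR-351-5p.

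**Figure D1:**
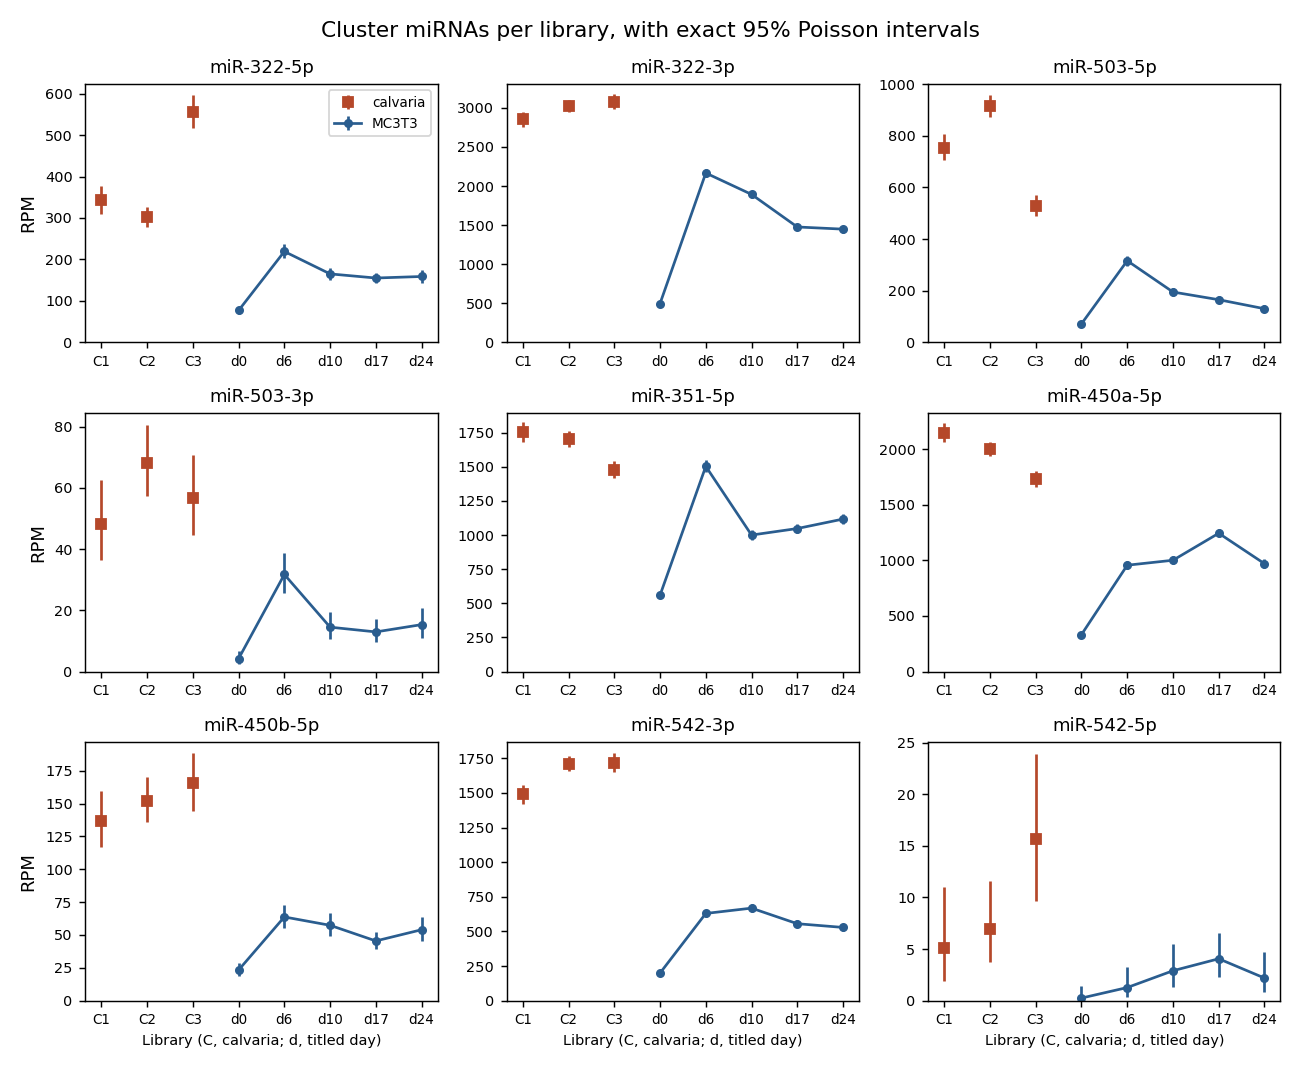
Level of each cluster miRNA in RPM (vertical axis, linear, a separate scale per panel) in the 3 calvaria (squares, C1 to C3) and in the MC3T3 libraries by day (circles joined by a line, d0 to d24), with exact 95% Poisson intervals of the count, which cover counting error only. Calvaria lie above every MC3T3 library in 8 of 9 panels, and day 0 is the lowest MC3T3 library in all 9.

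Of the members with the miR-15/16 seed, miR-322-5p had 343, 302 and 556 RPM in calvaria, against 77.1, 219, 165, 155 and 159 RPM at days 0, 6, 10, 17 and 24. Calvaria 3 was far above the other calvaria, and all 3 were above the MC3T3 days. The log2 difference was 1.20 ± 0.26 (SE, edgeR adjusted p = 0.00191). miR-503-5p, its partner in the miR-15/16 group, had 754, 914 and 529 RPM in calvaria and 72.2, 316, 195, 165 and 131 RPM at the MC3T3 days. Calvaria 3 was here the lowest, where miR-322-5p had its highest level. At 1.94 ± 0.32, its log2 difference was the largest of the 9 members (SE, edgeR adjusted p = 0.000293).

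The opposite arms of both hairpins were also higher. miR-322-3p was the most abundant member in every calvaria and at every day but day 0, with 2855, 3020.2 and 3079 RPM in calvaria and 498, 2166, 1893, 1477 and 1449 RPM at the MC3T3 days. Its log2 difference was 0.86 ± 0.29 (SE, edgeR adjusted p = 0.0239). miR-503-3p stood at a much lower level, with 48.2, 68.2 and 56.6 RPM in calvaria and 4.22, 31.7, 14.5, 12.9 and 15.3 RPM at the MC3T3 days. It differed by 1.76 ± 0.40 on the log2 scale (SE, edgeR adjusted p = 0.0026). The call for miR-322-3p was lost with upper-quartile scaling, where it stood at 0.43 (edgeR adjusted p = 0.198) and the median of all miRNAs tested at -0.37, and without calvaria 2 (edgeR adjusted p = 0.0518). Over all 22 alternatives its adjusted p ran from 0.00327 to 0.198.

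miR-351-5p, the member with the miR-125 seed, differed least. It had 1754, 1702 and 1478 RPM in calvaria and 559.5, 1503, 999.8, 1048 and 1117 RPM at the MC3T3 days. Day 6 lay within the range of the calvaria, and the log2 difference of 0.49 ± 0.21 did not pass (SE, edgeR adjusted p = 0.0617). It passed under 6 of 22 alternatives, among them the fit without day 6 (edgeR adjusted p = 0.02) and DESeq2's size factors (log2 0.66, edgeR adjusted p = 0.0145), with adjusted p between 0.0039 and 0.93 over all of them.

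Of the distal members, miR-542-3p, known in mouse osteoblasts for targeting Bmp7, had 1489, 1711 and 1717 RPM in calvaria and 199, 629.7, 668, 556 and 529 RPM at the MC3T3 days. The groups were far apart, and the log2 difference was 1.51 ± 0.26 (SE, edgeR adjusted p = 0.000443). Its opposite arm miR-542-5p was close to the detection limit, with 6, 14 and 21 counts in calvaria and 1, 4, 9, 16 and 6 counts at the MC3T3 days. This arm passed the filter of 10 counts in 3 libraries through calvaria 2, calvaria 3 and day 17. Its log2 difference was 1.90 ± 0.57 (SE, edgeR adjusted p = 0.0126).

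The miR-450 members separated clearly as well. miR-450a-5p, which is cut from both Mir450-1 and Mir450-2, had 2146, 1999 and 1727 RPM in calvaria and 333, 956, 1001, 1244 and 970.0 RPM at the MC3T3 days. It was higher by 0.97 ± 0.29 on the log2 scale (SE, edgeR adjusted p = 0.0124), a call lost with upper-quartile scaling (log2 0.52, edgeR adjusted p = 0.116, range over 23 alternatives 0.000624 to 0.116). miR-450b-5p had 137, 152 and 165 RPM in calvaria and 23.3, 63.7, 57.3, 45.4 and 54.0 RPM at the MC3T3 days, and its log2 difference was 1.47 ± 0.24 (SE, edgeR adjusted p = 0.00027). Reads of the 2 miR-450a precursors cannot be told apart in the mature 5′ arm, and the authors' tables give the entries of both precursors nearly the same counts. Of the other arms of the cluster, miR-450a-1-3p (log2 1.23) and miR-450b-3p (log2 1.14) were also higher in calvaria, whereas miR-351-3p (log2 1.29) had an edgeR adjusted p of 0.05004 and did not pass. miR-450a-1-3p and miR-450b-3p share a run of 18 bases, so their counts may be split between them.

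**Figure D2:**
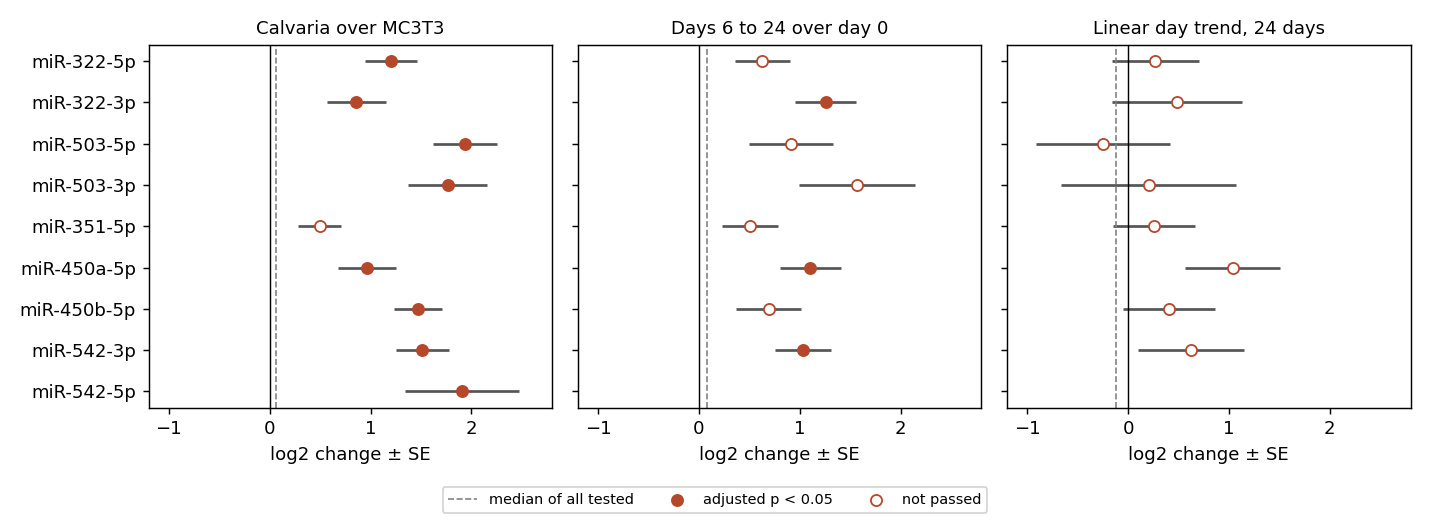
log2 change ± SE (horizontal axis) of each member in calvaria over MC3T3 (left), in days 6 to 24 over day 0 of MC3T3 culture (middle) and per 24 days of a linear trend over the MC3T3 days (right). Filled circles passed an adjusted p of 0.05, open circles did not, the dashed line is the median of all miRNAs tested, and miR-542-5p was tested only in the left panel; 8 members passed on the left, 3 in the middle and 0 on the right.

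Fewer members passed when calvaria were set against some of the MC3T3 days only. Against days 17 and 24 alone, 7 of 9 members were higher in calvaria, where 38.9% of the tested miRNAs were higher and 32.6% were lower. miR-351-5p (log2 0.30, edgeR adjusted p = 0.104) and miR-542-5p (edgeR adjusted p = 0.0896) did not pass. Against day 6 alone, a comparison added after the levels had been seen, 5 of 9 members were higher, where 37.9% of the tested miRNAs were higher and 23.6% were lower. Among these 5, miR-542-5p had 4 counts at day 6, passed the filter only through calvaria and so had to be higher there. In that comparison miR-351-5p stood at 0.03 (edgeR adjusted p = 0.93), miR-322-3p at 0.36 (edgeR adjusted p = 0.192), miR-322-5p at 0.77 (edgeR adjusted p = 0.152) and miR-503-3p at 0.77 (edgeR adjusted p = 0.095) on the log2 scale. The single day 6 library was there assumed to vary like the calvaria.

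Within MC3T3 culture, the comparison of days 6 to 24 with day 0 asks how the cluster changed after osteogenic medium was added. The deposited columns of the 4 later days also carry the mark veh, which day 0 lacks and the labels do not explain, so whatever it stands for cannot be told apart from the step after day 0. All 9 members were above their day 0 level in RPM on each of the 4 later days, as were 59.3% of the tested miRNAs (13.3% were below it on all 4), and the same held for all 9 when the total left out miR-21a-5p. By edgeR's test, 3 of the 8 members tested rose, against 7.16% of the 391 miRNAs tested that rose and 7.42% that fell. miR-322-3p rose by 1.26 ± 0.30 on the log2 scale (SE, edgeR adjusted p = 0.0274), miR-450a-5p by 1.11 ± 0.30 (SE, edgeR adjusted p = 0.0417) and miR-542-3p by 1.03 ± 0.28 (SE, edgeR adjusted p = 0.0416). The median log2 difference of the 8 members was 0.97, beside 0.08 for all miRNAs tested.

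The other 5 tested members had positive differences that did not pass. miR-503-3p had the largest estimate of all, 1.57 ± 0.57 (SE, edgeR adjusted p = 0.0966), resting on 17 counts at day 0. miR-503-5p stood at 0.91 ± 0.42, miR-450b-5p at 0.69 ± 0.32, miR-322-5p at 0.63 ± 0.27 and miR-351-5p at 0.51 ± 0.28 (log2 ± SE), with edgeR adjusted p between 0.147 and 0.236. miR-542-5p had 10 or more counts on 1 day only and was not tested. Day 0 is a single library, assumed to vary like the later days. Scaling by library totals without miR-21a-5p, an alternative added after the data were seen, took the 3 calls away (edgeR adjusted p = 0.091 for miR-322-3p, 0.0655 for miR-450a-5p and 0.108 for miR-542-3p), as did leaving out day 10 or day 24. miR-450a-5p lost its call in 5 of 15 alternatives, miR-542-3p in 4 of 14 and miR-322-3p in 3 of 14, while their log2 differences stayed at or above 0.998, 0.88 and 1.11. Of the members that did not pass, miR-322-5p passed in 3 of 14 alternatives, miR-503-3p in 3 of 13, miR-351-5p in 2 of 14 and miR-450b-5p in 2 of 14, under limma or library totals, where the median of all miRNAs stood at 0.34 to 0.62, and for miR-503-3p also without day 6 or day 17.

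After day 0 the members differed in the day of their highest level. Of the 9, 6 were highest at day 6 (both miR-322 arms, both miR-503 arms, miR-351-5p and miR-450b-5p), miR-542-3p was highest at day 10, and miR-450a-5p and miR-542-5p were highest at day 17. miR-503-5p at day 6 was 4.38 times its day 0 level in RPM (95% interval 3.84 to 5.01, counting error only), and at day 24 it was 0.413 times its day 6 level (0.365 to 0.466). miR-450a-5p at day 6 was 2.87 times its day 0 level (2.69 to 3.07), and its level at day 24 was 1.01 times that of day 6 (0.963 to 1.07). miR-322-3p lay between these courses, at 4.35 times (4.14 to 4.58) and 0.669 times (0.643 to 0.696). These intervals describe single libraries and leave out the spread between cultures. They also leave out the shift of miR-21a-5p at day 0, which enlarges each ratio to day 0 in RPM. Counted over all reads other than miR-21a-5p, day 6 was 2.99 times day 0 for miR-503-5p, 1.96 times for miR-450a-5p and 2.97 times for miR-322-3p.

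A linear trend over the 5 days passed for 0 of the 8 members tested, with 1.02% of all miRNAs tested called higher and 1.28% called lower. Over all miRNAs, edgeR's test had 40 rising and 51 falling at an unadjusted p under 0.05. The members' slopes ran from -0.25 to 1.04 on the log2 scale per 24 days, the highest being that of miR-450a-5p (1.04 ± 0.47 SE, edgeR adjusted p = 0.242). Over log2(day + 1) in place of the day, miR-450a-5p rose (log2 1.29, edgeR adjusted p = 0.0197), and its adjusted p ran to 0.61 over 17 alternatives. With day 0 left out, the slopes were negative for 7 of 8 members. Over these 18 days miR-503-5p fell by 0.99 ± 0.29 on the log2 scale (SE, edgeR adjusted p = 0.00879), the single call among the 8 members, where 7.89% of the tested miRNAs fell and 7.11% rose. miR-351-3p, the minor arm of the neighbouring hairpin, also fell over these days (log2 -2.02, edgeR adjusted p = 0.0105).

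Mir322 was the largest source of cluster reads in both materials. It gave 34.8% ± 3.11 of the cluster's reads in calvaria and 36.5% ± 3.63 in MC3T3 cells, and the miR-450a precursors gave 20.3% ± 1.99 in calvaria and 20.5% ± 3.80 in MC3T3 cells (SD over 3 calvaria and over 5 days). Mir503 gave 8.08% ± 1.79 in calvaria and 4.24% ± 0.963 in MC3T3 cells, Mir542 gave 16.9% ± 1.44 in calvaria and 11.7% ± 1.01 in MC3T3 cells, and Mir351 gave 17.0% ± 1.22 in calvaria and 24.7% ± 4.35 in MC3T3 cells. Mir450b gave 2.88% ± 0.201 in calvaria and 2.32% ± 0.177 in MC3T3 cells. The ranges of these last 4 hairpins did not overlap between the materials. These shares sum to a whole, so a higher share of some hairpins goes with a lower share of others, and they were not tested.

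**Figure D3:**
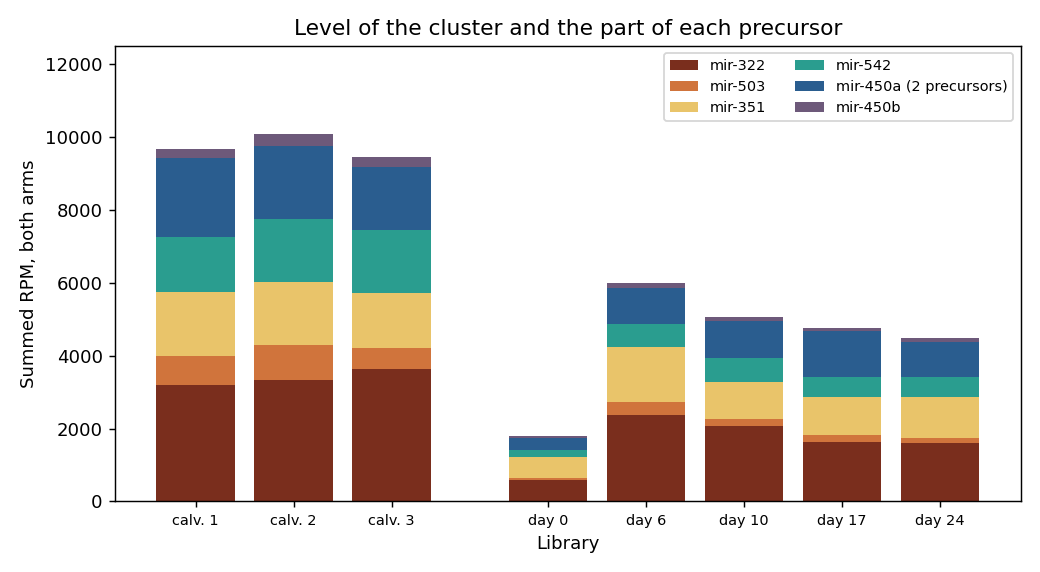
Summed level of both arms of each precursor in RPM (stacked bars, linear axis from 0) in the 3 calvaria and at the 5 MC3T3 days. The whole cluster stands at 9463 to 10070 RPM in calvaria and at 1789 to 5989 RPM in MC3T3 cells, and the Mir322 segment is the tallest in every bar.

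At Mir322, Mir503 and Mir542 the same arm dominated in every library. miR-322-3p made up 89.3%, 90.9% and 84.7% of the reads of its hairpin in calvaria and 86.6 to 92.0% in MC3T3 cells. miR-503-5p made up 90.3 to 94.0% of its hairpin in calvaria and 89.5 to 94.5% in MC3T3 cells, and miR-542-3p made up 99.1 to 99.7% in calvaria and 99.3 to 99.9% in MC3T3 cells. The 3′ arm was the larger one at Mir322 and Mir542 and the 5′ arm at Mir503, in all 8 libraries. At Mir450b the arms were close: miR-450b-3p had 120, 155 and 113 RPM in calvaria and 19.4, 82.1, 60.9, 50.4 and 54.9 RPM at the MC3T3 days, so miR-450b-5p was the larger arm in calvaria 1, calvaria 3 and day 0 only. The log2 ratio of miR-322-5p to miR-322-3p differed between calvaria and MC3T3 cells by 0.24, with a two-sided exact permutation p of 0.357 (adjusted p = 0.571 over 8 ratios).

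Of the 8 ratios between members that were set up, none passed after adjustment. The smallest p that 3 against 5 libraries allow is 0.0357, and it was reached once, by miR-322-5p over miR-351-5p. This ratio was higher in calvaria by 0.67 on the log2 scale, without overlap of the groups (two-sided exact permutation p = 0.0357, adjusted p = 0.286). It stood at 0.34 without calvaria 3, where miR-322-5p was high, and at up to 0.88 when each other library was left out in turn. miR-322-5p over miR-503-5p was lower in calvaria by an estimate of -0.79 (two-sided exact permutation p = 0.143, adjusted p = 0.381), with overlapping groups.

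Because miR-322-5p and miR-503-5p share their seed with other miRNAs, their level was set beside that of the whole miR-15/16 pool, to which miR-497-5p was assigned as a listed relative by name and not by sequence. In calvaria, 55.2%, 56.3% and 42.5% of the pool came from these 2 members, against 29.3, 25.1, 20.4, 15.7 and 15.1% at days 0, 6, 10, 17 and 24. The share was higher in each calvaria than at any MC3T3 day, and within the culture each sampled day lay below the one before. The pool itself had 1989, 2161 and 2553 RPM in calvaria and 509.7, 2133, 1763, 2049 and 1920.2 RPM at the MC3T3 days. Its later days lay within or just below the range of the calvaria, whereas day 0 lay far below it.

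Of 10 listed miR-15/16 relatives 5 could be tested, and in calvaria against MC3T3 cells none was higher and 1, miR-15b-5p, was lower (log2 -1.89, edgeR adjusted p = 0.00107). Over all miRNAs tested, 35.5% were higher there and 28.7% were lower. miR-16-5p, the most abundant relative except at day 24, stood at 0.07 (edgeR adjusted p = 0.849) and miR-195a-5p at -1.37 (edgeR adjusted p = 0.12). In days 6 to 24 against day 0, 2 of the 5 rose, where 7.16% of all miRNAs tested rose and 7.42% fell. miR-195a-5p rose by 3.90 (edgeR adjusted p = 0.00624) and miR-497-5p by 2.99 (edgeR adjusted p = 0.0169), while miR-16-5p stood at 0.99 (edgeR adjusted p = 0.051). From day 6 to day 24, over which miR-503-5p fell, miR-195a-5p rose by 1.30 on the log2 scale (edgeR adjusted p = 0.00123). Over the same days miR-497-5p rose by 1.35 (edgeR adjusted p = 0.000703) and miR-15b-5p fell by 1.18 (edgeR adjusted p = 0.00238). These p-values come from the fit of 4 libraries without day 0 and share its limit.

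**Figure D4:**
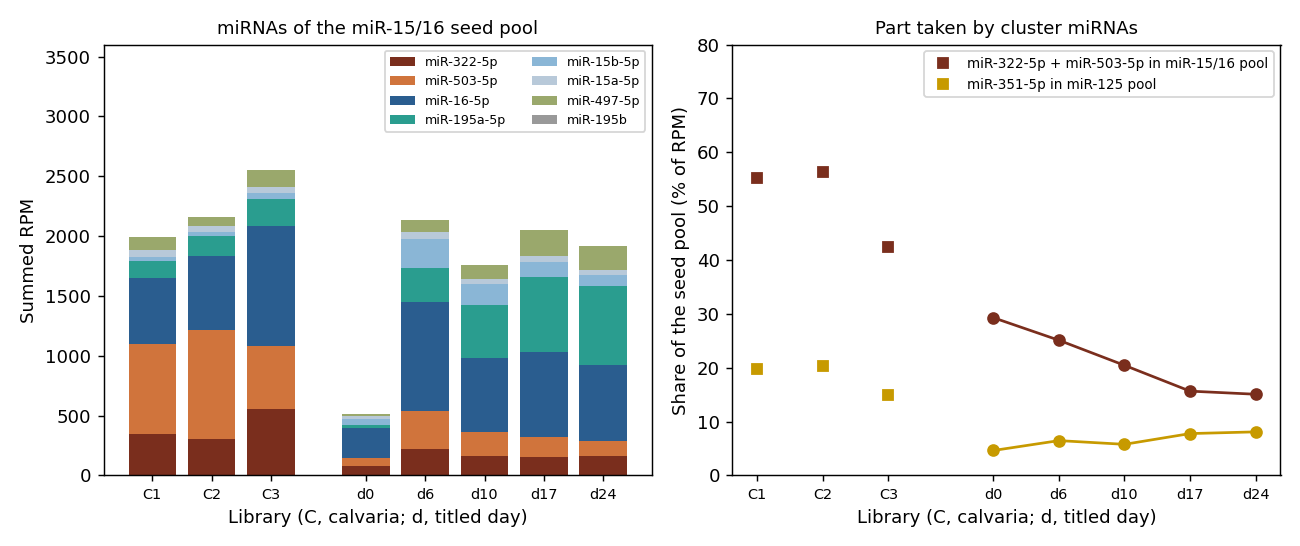
Left, summed RPM (linear axis from 0) of the miRNAs with the miR-15/16 seed, stacked by miRNA, in the 3 calvaria (C1 to C3) and at the MC3T3 days (d0 to d24). Right, percent of that pool from miR-322-5p plus miR-503-5p and percent of the miR-125 pool from miR-351-5p; the first stands at 42.5 to 56.3% in calvaria and at 15.1 to 29.3% in MC3T3 cells, the second at 15.0 to 20.3% in calvaria and at 4.63 to 8.09% in MC3T3 cells.

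In the miR-125 pool, miR-351-5p was the minor part everywhere. It gave 19.7%, 20.3% and 15.0% of the pool in calvaria and 4.63, 6.47, 5.78, 7.77 and 8.09% at days 0, 6, 10, 17 and 24. The higher share in calvaria went with a lower level of the largest relative, miR-125b-5p, whose log2 difference was -1.28 (edgeR adjusted p = 0.00025). Of 27 listed miRNAs of other X-linked clusters 19 were tested, 11 were higher in calvaria and 2 were lower, beside the 35.5% and 28.7% of all miRNAs. On this list, let-7f-5p, miR-92a-3p and miR-19b-3p also come from autosomes, so the counts are not of X-linked products alone. Some of the 11, such as miR-672-5p, miR-676-3p and miR-224-5p, passed the filter only through calvaria and so had to be higher there.

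The miRNAs whose profile was most like that of miR-322-5p over the 8 libraries, outside the 9 members and at a mean of at least 50 RPM, were miR-5115 (Pearson r = 0.948 on log2 values), the muscle miRNA miR-1a-3p (0.944), miR-6240 (0.936), miR-23a-3p (0.935) and miR-690 (0.932). All 5 were highest in calvaria 3, as was miR-322-5p. miR-23a-3p, for example, had 5777, 5169 and 9618 RPM in calvaria and 972 to 1855 RPM in MC3T3 cells. In MC3T3 cells miR-5115 had 0 to 7.11 RPM, miR-6240 1.24 to 6.93 RPM and miR-690 4.96 to 17.7 RPM. In calvaria they had 112 to 291, 260 to 531 and 82.8 to 190 RPM. These 3 reached the mean of 50 RPM only through calvaria, so their likeness cannot be told apart from the split between the materials. Members of the cluster reached r values of 0.78 to 0.95 with miR-322-5p, and the median over all tested miRNAs was 0.139. Over the 5 MC3T3 libraries alone, the most alike outside the 9 members were miR-450b-3p, another arm of the cluster (0.995), miR-335-3p (0.993), miR-30c-5p (0.989), miR-196b-5p (0.988) and miR-16-5p (0.952). Of the members, miR-503-3p (0.983) and miR-322-3p (0.961) stood above miR-16-5p on that measure. The other members tested stood below it, from 0.701 for miR-450a-5p to 0.948 for miR-351-5p. miR-196b-5p had 33.9 to 148 RPM in MC3T3 cells but at most 0.85 RPM in calvaria, so for this miRNA likeness over the days did not carry over to the tissue. miR-450b-3p, in contrast, was higher in calvaria as miR-322-5p was, with 113 to 155 RPM there and 19.4 to 82.1 RPM in MC3T3 cells. The libraries share the fixed RPM total and the shift of miR-21a-5p at day 0, and with so few libraries such r values are a description only.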

How the data were processed

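Small RNA libraries (NEBNext kit) from 3 calvaria and 5 pooled MC3T3-E1 sc4 time points were analysed. Adapters were trimmed with cutadapt 0.9.5 and reads aligned with Bowtie 0.12.7 to mm10, per the submitters' processing notes; no counting tool is named. The deposited tables hold estimated counts per miRNA entry, not all whole, and RPM, which the authors scaled from these counts by each library's sum. Column names give a day 3 lower than the sample titles for all 5 MC3T3 libraries, and the titled days are used. The columns of the 4 later days carry an unexplained mark, veh.

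Entries of 1 mature miRNA were summed (1418 entries, 1281 miRNAs) and rounded. edgeR 4.0.16 in R 4.3.3 (TMM, glmQLFit, glmQLFTest, Benjamini-Hochberg) was fitted with the material, the step after day 0 or the day as the single term. The filter was 10 counts in 3 libraries for calvaria against all MC3T3 days. It was 10 counts in 2 libraries for the MC3T3 fits and for calvaria against some of the days only. SE is the log2 change over the root of F. The fits were tested on simulated data. Ratios had 0.5 counts added and two-sided exact permutation tests over the 8 libraries. Alternatives included DESeq2 1.42.0, limma 3.58.1 on log2(RPM + 1) or log2(RPM + 10), other scalings and filters, and each library left out. Depth was 1183011 to 2023036 counts in calvaria and 2742368 to 4031962 in MC3T3 cells. Intervals are exact 95% Poisson or ratio intervals and cover counting error only, since reads carry no molecular identifiers.

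The members, marker lists and relatives were chosen with earlier results of these data known. All members were named, along with listed relatives where a result turned on them and the 5 miRNAs most correlated with miR-322-5p.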

Additional observations from a re-analysis of the deposited data

How the results depend on the processing

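No result changed its direction past the threshold in any alternative run. In calvaria against MC3T3 cells (167 miRNAs higher, 135 lower over all tested), a minimum of 100 counts gave 81 and 75, and leaving out each library gave 77 to 179 higher and 86 to 145 lower; miR-503-5p, miR-450b-5p and miR-542-3p passed in all 22 alternatives run on them. The median of all miRNAs stood at 0.06 with TMM, -0.37 with upper-quartile scaling, 0.25 with library totals and 0.23 with the size factors of DESeq2. In days 6 to 24 against day 0 (28 higher, 29 lower), library totals gave 74 and 11, limma gave 90 and 10 with a pseudocount of 1 and 68 and 11 with 10, no filter gave 44 lower, entries per precursor gave 47 lower, and leaving out each library gave 7 to 55 higher and 11 to 54 lower. Library totals put the median of all miRNAs at 0.62 there, beside 0.08 with TMM. The day trend (4 higher, 5 lower) gave 0 and 0 with library totals and with limma at either pseudocount, 7 and 10 without a filter, 0 and 1 with a minimum of 100 counts, 19 and 14 with DESeq2's Wald test, 8 lower with entries per precursor, 0 and 1 with totals that leave out miR-21a-5p (added after the data were seen), 39 and 49 over log2(day + 1), and 0 to 27 and 0 to 30 with each library left out. The 8 ratios are left out of this account, since 3 against 5 libraries allow no p below 0.0357 and a single ratio at that value adjusts to 0.286. No paired analysis was possible because each MC3T3 day is 1 library and the calvaria numbers pair with none. Depth limits miR-542-5p (1 to 21 counts per library) and miR-503-3p at day 0 (17 counts).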
